A study of Mus musculus with 8 samples.

Results

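The comparison described here is that of HO1 genotype in the presence of an shRNA against HO2. It sets 2 arrays from cells labelled HO1-/- against 2 arrays from cells labelled HO1+/+, all 4 with HO2 shRNA, out of 8 arrays in the series. The members are all 19937 genes that had a probe set with 1 gene symbol, each read from its brightest probe set. The cells were primary hepatocytes of male BALB/c mice, obtained by collagenase perfusion and a Percoll gradient, plated on gelatine in medium with serum. After attachment they received lentivirus with the hairpin. Puromycin was added after 24 h, and 3 days later the cells had a 30 min pulse of 1 µM dexamethasone, with collection 28 h afterwards. All 4 groups of the series share these steps. By their labels the other 4 arrays differ only in carrying a scrambled shRNA, 2 in HO1+/+ and 2 in HO1-/- cells. Their signals differed widely in some genes. In HO1+/+ cells Cps1 had log2 means of 10.27 with scrambled and 13.25 with HO2 shRNA, and Apoa1 10.90 and 13.22. Alb differed less (13.36 and 13.88), and Cxcl5 went the other way (12.11 and 8.46). What part of any difference between hairpins below went with such levels was not tested. In the text, HO2 knockdown replicates 1 and 2 are the HO1+/+ arrays with HO2 shRNA, combined replicates 1 and 2 the arrays labelled HO1-/- with HO2 shRNA, and control and HO1 knockout replicates those with scrambled shRNA. Knockdown rested on 1 hairpin, the age of the mice is not stated, and all cells came from a common time after dexamethasone. Replicates are called biological in the labels, without a statement that they came from separate mice, so p-values cover only the spread between samples, which may be technical. Each genotype comes from its own hepatocyte preparations, and preparation and genotype cannot be told apart. Signals are log2 values, and a log2 difference below is the mean of the 2 arrays labelled HO1-/- minus that of the 2 HO1+/+ arrays, both with HO2 shRNA, unless the scrambled shRNA is named.

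Heme oxygenases open the heme ring and release carbon monoxide, iron and biliverdin, which biliverdin reductase turns into bilirubin. HO1, encoded by Hmox1, is induced by heme and oxidative stress and is abundant in the macrophages that clear red cells, Kupffer cells in the liver. HO2, encoded by Hmox2, is constitutive. Mice without HO1 are known for iron loading of the liver, inflammation and loss of macrophages that take up red cells. Carbon monoxide also binds the heme of clock proteins, and the series was set up around circadian transcription.

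Genes called at an adjusted p under 0.05 (limma over all 8 arrays, Benjamini-Hochberg adjustment over all genes) numbered 6775, which is 34.0% of all genes tested. Of these, 2591 genes (13.0% of all genes) were higher and 4184 (21.0%) were lower in the arrays labelled HO1-/-. Differences of at least 2-fold were fewer and went mostly upward, with 275 genes higher (1.38%) and 50 lower (0.251%). After centring every array on a common median the split became 1723 higher and 5418 lower, and without HO2 knockdown replicate 1 the calls numbered 3827. Small differences followed brightness, since the median log2 difference was 0.087 and 0.14 in the dimmest and second of 4 equal bins of genes by mean signal and -0.11 and -0.12 in the third and the brightest bin. The part of this dependence in the small list medians below was not tested. Calls followed brightness too. From the dimmest to the brightest bin, 101, 351, 1631 and 2101 genes were lower and 403, 964, 655 and 569 higher. The dimmest bin held 4985 genes and each of the others 4984. Every member count below is therefore to be read beside the 13.0% and 21.0% of all genes. For lists of bright genes the counts of the brighter bins are the closer measure, and the part of brightness in list counts was not tested. Every list median is to be read beside the median over all genes, 0.022. Groups without overlap are mentioned for some genes below. With 2 arrays a group this also occurred in genes that did not pass, such as Rsad2 and Timd4, so it adds nothing to a call. Hepatocyte transcripts were strong in all 4 arrays. The albumin gene Alb gave 13.85 and 13.92 in the HO1+/+ arrays and 13.92 and 13.99 in the arrays labelled HO1-/-, and the apolipoprotein gene Apoa2 gave 10.96 and 10.92 in the HO1+/+ arrays and 11.31 and 11.30 in the arrays labelled HO1-/-. Where the call of a named gene ended when 1 array was left out, the adjusted p without that array is given beside it.

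The arrays labelled HO1-/- did not show less Hmox1 signal, and they had lost less Hmox2. Hmox1 (chr8:75093618-75100593, GRCm38.p6) gave 11.54 and 11.57 in the HO1+/+ arrays and 12.40 and 12.47 in the arrays labelled HO1-/-, so both arrays labelled HO1-/- were the higher ones and the groups did not overlap (log2 difference 0.88, SE 0.046, adjusted p = 7.36e-10). Which exons the HO1-/- allele lacks or where the probes lie is not stated in the sources used here, so this signal does not check the genotype, and each direction below rests on the labels. Hmox2 (chr16:4726361-4766742) gave 8.32 and 8.38 in the HO1+/+ arrays and 9.26 and 9.32 in the arrays labelled HO1-/-, a log2 difference of 0.94 (SE 0.065, adjusted p = 2.4e-08). With the scrambled shRNA it gave 11.41 and 11.57 in the HO1+/+ arrays and 11.59 and 11.60 in the arrays labelled HO1-/-, where the difference was 0.11 (adjusted p = 0.376). The 2 groups compared here therefore differed in remaining Hmox2 transcript as well as in genotype, and what part of any result below went with remaining Hmox2 was not tested.

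Downstream of the oxygenases, the 2 biliverdin reductase genes went opposite ways. Blvra was higher by 0.67 (8.28 and 8.32 in the HO1+/+ arrays, 9.01 and 8.93 in the arrays labelled HO1-/-) and Blvrb lower, at a log2 difference of -0.15. The call of Blvrb ended whichever array was left out (adjusted p from 0.0649 to 0.196). Among genes of heme synthesis, 1 of 8 measured was higher, 4 lower and 3 did not pass. Alas1, the rate-limiting enzyme, gave 12.17 and 12.15 in the HO1+/+ arrays and 11.60 and 11.54 in the arrays labelled HO1-/-, a log2 difference of -0.59 (SE 0.045, adjusted p = 8.76e-08). Fech, which inserts iron into the ring, differed by -0.44, Ppox by -0.31 and Uros by -0.33, whereas Alad, the second enzyme of the pathway, was higher by 0.15. The calls of Ppox and Uros ended without HO2 knockdown replicate 1 (adjusted p = 0.0652 and 0.0831) and without combined replicate 2 (0.121 and 0.0768). That of Alad ended without HO2 knockdown replicate 2 (0.255), combined replicate 1 (0.0817) or combined replicate 2 (0.193). Of 15 genes that carry heme or hemoglobin, 1 was higher and 3 lower, with Slc46a1, a heme and folate carrier, at -0.41 and the progesterone receptor membrane component gene Pgrmc1, which binds heme, at -0.22. The third was Fabp1, which is described with the genes of fatty acid metabolism. With centred arrays 6 of the list were lower.

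Genes of iron handling were mostly lower where they passed the test. Of 26 measured, 13 were lower, 3 higher and 10 did not pass, with a median log2 difference of -0.16. In the third and brightest bins 1631 and 2101 of 4984 genes each were lower, and 655 and 569 higher. The medians of these bins were -0.11 and -0.12. Hamp, which encodes the iron hormone hepcidin, gave 13.42 and 13.50 in the HO1+/+ arrays and 12.86 and 12.98 in the arrays labelled HO1-/- (-0.54, SE 0.051, adjusted p = 1.3e-06), and both arrays labelled HO1-/- were lower. Hepcidin acts on the iron exporter protein, which was not measured. The transcript of its gene, Slc40a1, went the other way from Hamp. It gave 11.43 and 11.47 in the HO1+/+ arrays and 11.96 and 11.94 in the arrays labelled HO1-/- (0.49, SE 0.054, adjusted p = 5.12e-06). Some uptake genes were lower, with the metal transporter gene Slc11a2 at -0.69, the transferrin receptor genes Tfr2 and Tfrc at -0.47 and -0.35, and the ferrireductase genes Steap4 and Steap3 at -1.16 and -0.44. The importer genes Slc39a14 (-0.049) and Slc39a8 (-0.13) did not pass, except Slc39a8 with centred arrays (adjusted p = 0.0408). Genes of iron sensing and ferritin turnover were lower as well, namely Fbxl5 (-0.43) and Ncoa4 (-0.35). Id1, a target of the BMP signalling that also controls hepcidin, was higher by 0.44. Other listed genes tied to BMP signalling went both ways where they passed. Macrophages express Slc40a1 strongly, and macrophage markers had a median of 1.90 in the same arrays. Their part in the value for Slc40a1 was not tested.

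Macrophage transcripts led the rises, and the 20 largest rises were all in genes known from myeloid or other blood cells. Lyz2, which encodes lysozyme, gave 8.64 and 8.93 in the HO1+/+ arrays and 13.34 and 13.42 in the arrays labelled HO1-/-, a log2 difference of 4.60 or 24.2-fold (SE 0.080, adjusted p = 1.37e-15). Ms4a6c, of a family of membrane proteins, gave 6.46 and 7.20 in the HO1+/+ arrays and 11.68 and 11.70 in the arrays labelled HO1-/- (4.86, SE 0.15, adjusted p = 1.18e-12). Pla2g7, which encodes the enzyme that inactivates platelet-activating factor, gave 7.26 and 7.41 in the HO1+/+ arrays and 11.87 and 12.03 in the arrays labelled HO1-/- (4.61). In these 3 genes the arrays labelled HO1-/- lay more than 4 log2 units above the HO1+/+ arrays, far beyond the distance between replicates. Ctss, the macrophage protease cathepsin S, gave 6.94 and 7.47 in the HO1+/+ arrays and 11.70 and 11.73 in the arrays labelled HO1-/- (4.51). Cd53, a leukocyte tetraspanin, gave 7.35 and 7.53 in the HO1+/+ arrays and 11.79 and 11.78 in the arrays labelled HO1-/- (4.34). Tlr7, the endosomal receptor for single-stranded RNA, gave 5.43 and 5.55 in the HO1+/+ arrays and 9.83 and 9.96 in the arrays labelled HO1-/- (4.40). The complement subunit gene C1qb gave 7.88 and 8.15 in the HO1+/+ arrays and 12.17 and 12.25 in the arrays labelled HO1-/- (4.19). The other genes of the 20 were Ms4a6d (4.65), Ly86 (4.59), the adaptor genes Fcer1g (4.23) and Tyrobp (3.98), Tlr13 (4.16), the inhibitory receptor gene Lilr4b (4.14), the complement receptor gene C3ar1 (4.12), Laptm5 (4.09), Ms4a4a (4.05), Igsf6 (4.05), the mannose receptor gene Mrc1 (3.96), and the chemokine genes Pf4 (4.05) and Ccl6 (3.98).

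**Figure D1:**
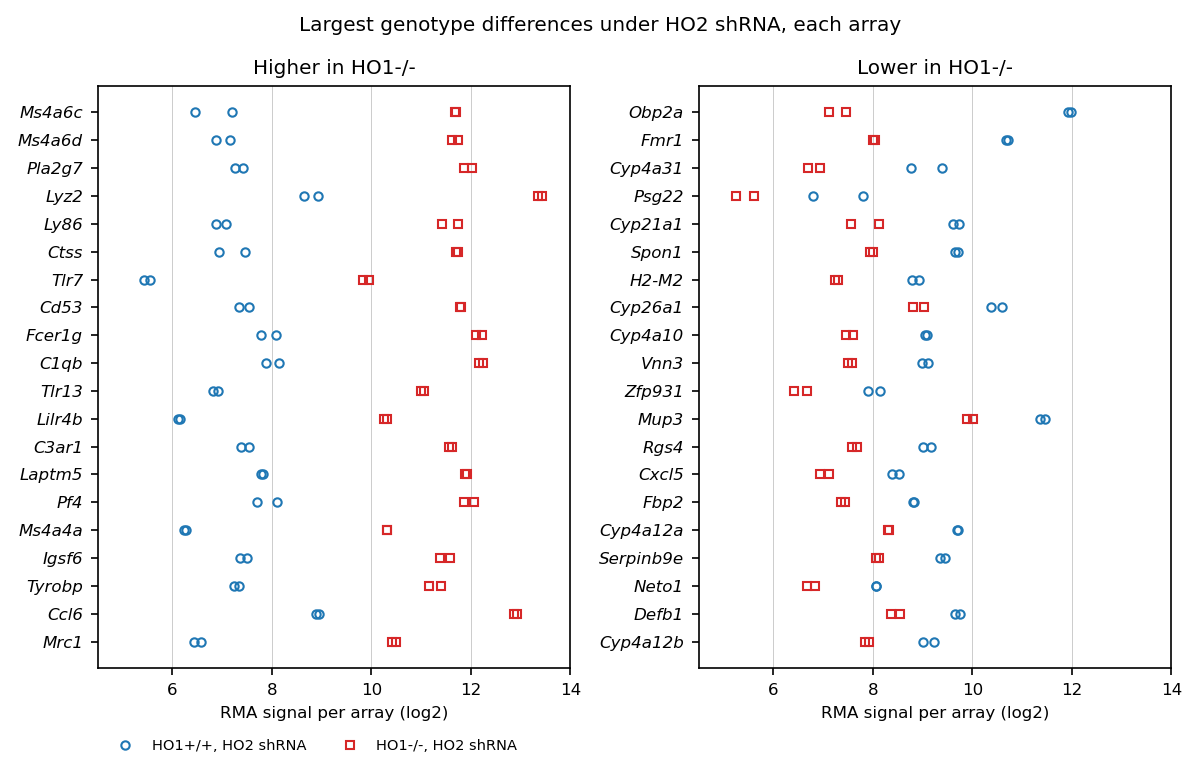
Log2 signal in each of the 4 arrays (horizontal axis) for the 20 genes with the largest rise and the 20 with the largest fall among called genes whose groups do not overlap. Circles are HO1+/+ arrays and squares are arrays labelled HO1-/-, all with HO2 shRNA. Lyz2 moves from 8.64 and 8.93 to 13.34 and 13.42, and Obp2a from 11.99 and 11.93 to 7.47 and 7.13.

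Of 26 Kupffer cell and macrophage markers, 20 were higher, 0 lower and 6 did not pass, against 13.0% and 21.0% of all genes, with a median of 1.90. Summed on the linear scale, the markers gave 8782 and 9107 in the HO1+/+ arrays and 46472 and 50114 in the arrays labelled HO1-/-. Genes of macrophages in general led, among them Msr1 (3.53), Adgre1, which encodes F4/80 (3.40), Itgam (3.00), the growth factor receptor gene Csf1r (2.73), Cd68 (2.59) and C1qa and C1qc (2.49 and 3.91). Markers particular to resident Kupffer cells were dim in all 4 arrays, and less apart. Clec4f gave 7.02 and 7.09 in the HO1+/+ arrays and 7.73 and 7.44 in the arrays labelled HO1-/- (0.53) and Cd5l 5.64 and 5.95 in the HO1+/+ arrays and 7.06 and 6.83 in the arrays labelled HO1-/- (1.15), while Timd4 (0.20) and the hemoglobin scavenger receptor gene Cd163 (0.19) did not pass. The call of Clec4f ended without combined replicate 1 (adjusted p = 0.0643). Cd14, which hepatocytes express too, was bright in both groups and did not pass (-0.088), except without combined replicate 2 (adjusted p = 0.038). In RNA from a whole culture, more cells of a type and more RNA per cell cannot be told apart. With the scrambled shRNA, in arrays that this comparison does not use, the marker median was 2.05, with 19 members higher and 1 lower. The lower one, a marker of resident Kupffer cells, differed by -1.07 there and did not pass under HO2 shRNA.

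Lysosomal genes that macrophages use heavily were higher in part. Of 18 measured, 12 were higher, 2 lower and 4 did not pass (median 0.31). The osteoclast and macrophage proton pump subunit gene Atp6v0d2 differed by 3.09, Gpnmb by 2.21 and the protease gene Lgmn by 0.98, whereas Ctsc (-0.21), bright in all 4 arrays, was slightly lower. MHC class II genes, which present antigen, had 5 of 9 members higher and 0 lower (median 0.33). Cd74, the invariant chain, gave 6.59 and 6.44 in the HO1+/+ arrays and 9.35 and 9.49 in the arrays labelled HO1-/- (2.91, SE 0.16, adjusted p = 1.34e-09), and H2-Aa and H2-Ea were 1.50 and 1.11 higher. H2-Ab1, the partner chain of H2-Aa, did not pass (0.15). Without HO2 knockdown replicate 2, or without combined replicate 2, 3 of the class II genes remained called. The C-type lectin gene Clec7a, a receptor for fungal glucans, was 3.41 higher, and the purine receptor gene P2ry13 2.19.

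Other non-parenchymal cell markers moved less. Of 13 neutrophil markers 3 were higher, the protease genes Mmp8 (3.94) and Mmp9 (1.10) and the receptor gene Csf3r (0.72), while the granule gene Camp (0.20) and Ly6g (0.18) did not pass. Of 14 lymphocyte markers 2 were higher, Ptprc (2.23), which encodes CD45 and is expressed by all leukocytes, and Ncr1 (0.28), a receptor gene of natural killer cells whose call ended whichever array was left out (adjusted p from 0.101 to 0.222). Of 17 sinusoidal endothelial markers 9 were higher and 2 lower (median 0.24). Stab1 (2.51), Fcgr2b (1.97) and Lyve1 (1.14), which macrophages also express, differed most, followed by the receptor genes Ptprb (0.80) and Kdr (0.66). Without combined replicate 2, 5 endothelial markers were called higher. Of 21 stellate cell and fibroblast markers 9 were lower and 2 higher (median -0.034). The retinyl ester synthase gene Lrat gave 8.58 and 8.91 in the HO1+/+ arrays and 7.57 and 7.55 in the arrays labelled HO1-/- (-1.19), and the matrix genes Dcn (-0.72), Postn (-0.63) and Lox (-0.58) were lower, whereas the smooth muscle actin gene Acta2 was 0.30 higher. Without combined replicate 2, 5 of these markers were called lower. Of 11 cholangiocyte markers 3 were higher, Tspan8 (1.03), Krt7 (0.54) and Prom1 (0.47), and 2 lower, Sox9 (-0.58) and Cldn4 (-0.38). Of 6 erythrocyte and platelet markers only 2 chemokine genes passed, Pf4 higher and Ppbp (-1.11) lower, and the others did not pass.

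The promoters of the leading macrophage genes were searched for the letters GAGGAAGT, a form of the site of PU.1, the transcription factor of the myeloid lineage. The search covered both strands of windows from RefSeq (GRCm38.p6) that run from 250 bases before to 50 bases after a start site. The letters were found in 3 of 17 windows of the 20 genes with the largest rises (17.6%), those of Cd53, Ctss and Pf4, in 1 of 21 windows of the macrophage markers (4.76%), and in 3.20% of all 32851 windows. A match is only a run of letters in this window. The windows of Cd53 and Ctss are shown because their matches lie at the start site, with the match in capitals, 5′ to 3′ along the gene's strand. Both matches read ACTTCCTC, which is the searched run on the other strand.
Cd53, chr3:106790100-106790399, minus strand: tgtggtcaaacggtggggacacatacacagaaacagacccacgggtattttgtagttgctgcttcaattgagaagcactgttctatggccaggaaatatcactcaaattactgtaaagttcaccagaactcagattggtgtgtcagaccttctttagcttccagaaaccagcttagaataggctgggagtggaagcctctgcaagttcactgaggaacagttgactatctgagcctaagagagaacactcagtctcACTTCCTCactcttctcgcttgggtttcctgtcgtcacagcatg
Ctss, chr3:95526536-95526835, plus strand: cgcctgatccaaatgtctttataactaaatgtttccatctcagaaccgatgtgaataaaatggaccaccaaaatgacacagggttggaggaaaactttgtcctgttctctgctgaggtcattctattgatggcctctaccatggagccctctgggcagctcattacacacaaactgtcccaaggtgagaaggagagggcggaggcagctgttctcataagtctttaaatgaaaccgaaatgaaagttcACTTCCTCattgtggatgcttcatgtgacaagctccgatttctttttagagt

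The largest fall was that of Obp2a, a lipocalin gene of the odorant-binding type (chr2:25697577-25703326). Its signal was 11.99 and 11.93 in the HO1+/+ arrays and 7.47 and 7.13 in the arrays labelled HO1-/-, a log2 difference of -4.66 (SE 0.12, adjusted p = 7.56e-14), and both arrays labelled HO1-/- were then close to the median of all probe sets, which ran from 7.61 to 7.70 over the arrays. Of 23 lipocalin genes measured 4 were lower, with the major urinary protein genes Mup3 (-1.46) and Mup21 (-0.65) beside it, and 3 higher, among them Apom (0.42). Next came Fmr1 on chromosome X (chrX:68678536-68717963), which encodes an RNA-binding protein that represses translation. Its signal was 10.72 and 10.69 in the HO1+/+ arrays and 8.04 and 8.00 in the arrays labelled HO1-/- (-2.68, SE 0.095, adjusted p = 4.25e-12). Both genes fell with the scrambled shRNA as well, by log2 differences of -3.69 and -2.53.

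The other 18 of the 20 largest falls lay in genes of varied function, 6 of them cytochrome P450 genes. Cyp21a1, the steroid 21-hydroxylase, gave 9.61 and 9.73 in the HO1+/+ arrays and 8.13 and 7.57 in the arrays labelled HO1-/- (-1.82). Cyp26a1, which clears retinoic acid, gave 10.59 and 10.37 in the HO1+/+ arrays and 9.03 and 8.80 in the arrays labelled HO1-/- (-1.56). Vnn3, a pantetheinase gene, gave 8.98 and 9.11 in the HO1+/+ arrays and 7.51 and 7.59 in the arrays labelled HO1-/- (-1.50). The fatty acid hydroxylase genes Cyp4a31, Cyp4a10, Cyp4a12a and Cyp4a12b were among the 20 and are described below. Mup3, given above with the lipocalin genes, was among the 20 too. The rest were Psg22 (-1.88), the matrix gene Spon1 (-1.71), the class Ib gene H2-M2 (-1.59), Zfp931 (-1.47), Rgs4 (-1.45), which dampens G protein signalling, the chemokine gene Cxcl5 (-1.43), Fbp2 (-1.41), Serpinb9e (-1.30), Neto1 (-1.30) and the defensin gene Defb1 (-1.25). Psg22 rested on a wide spread, with 6.81 and 7.81 in the HO1+/+ arrays and 5.25 and 5.60 in the arrays labelled HO1-/-, and Zfp931 did not pass with robust variance estimates (adjusted p = 0.061). Genes with near-identical copies, such as those of the Cyp4a12, Ms4a6, Mup, Saa, Orm, Lyz, Ifit3 and Psg families, may share probes, so the value of a single member is uncertain.

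Fatty acid oxidation and targets of PPARA, the nuclear receptor that drives it, were lower almost throughout. Of 27 measured, 23 were lower, 0 higher and 4 did not pass, with a median of -0.37, against 21.0% of all genes lower. In the brightest bin 2101 of 4984 genes were lower, with a median of -0.12. Cyp4a31 gave 8.78 and 9.39 in the HO1+/+ arrays and 6.70 and 6.93 in the arrays labelled HO1-/- (-2.27, SE 0.22, adjusted p = 1.62e-06). Cyp4a10, a fatty acid omega-hydroxylase and a sensitive PPARA target, gave 9.10 and 9.06 in the HO1+/+ arrays and 7.47 and 7.60 in the arrays labelled HO1-/- (-1.54, SE 0.12, adjusted p = 1.03e-07), and Cyp4a12a gave 9.70 and 9.71 in the HO1+/+ arrays and 8.30 and 8.34 in the arrays labelled HO1-/- (-1.38). Its close copy Cyp4a12b differed by -1.24. In the first 3 genes the lower HO1+/+ array stood above both arrays labelled HO1-/-. Peroxisomal genes were lower, with Ehhadh at -1.08 and Acaa1b at -0.58, whose call ended without HO2 knockdown replicate 1 (adjusted p = 0.0737). Mitochondrial genes differed less, with the carnitine shuttle genes Cpt2, Slc25a20 and Cpt1a at -0.40, -0.36 and -0.25 and the acyl-CoA dehydrogenase gene Acadl at -0.32. The fatty acid binding protein gene Fabp1 was at -0.70, Creb3l3 at -0.52 and Pdk4 at -0.53. Ppara itself did not pass (-0.15), except with centred arrays (adjusted p = 0.0372). With the scrambled shRNA 7 of the genes were lower and 3 higher (median -0.10), and Cyp4a10 and Ehhadh stood at -0.057 and -0.0026. Several genes were dim there, where a fall is hard to see. Group means in the HO1+/+ arrays and those labelled HO1-/- were 6.38 and 6.33 for Cyp4a10 and 5.76 and 5.72 for Fabp1. Cyp4a31 gave 5.41 and 4.59. Array medians ran from 7.61 to 7.70. Ehhadh was brighter, at 8.70 and 8.70. The part of dim signal in the scrambled shRNA values was not tested.

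Other metabolic lists of the hepatocyte were lower in part. In the third and brightest bins 1631 and 2101 of 4984 genes each were lower, with medians of -0.11 and -0.12. Of 16 genes of gluconeogenesis and glycogen 10 were lower and 3 higher (median -0.28). Pck1, which commits oxaloacetate to glucose, gave 10.05 and 9.76 in the HO1+/+ arrays and 9.44 and 9.32 in the arrays labelled HO1-/- (-0.53), and its call ended without HO2 knockdown replicate 1 (adjusted p = 0.0797). Fbp1 (-0.52), Pcx (-0.48) and Gbe1 (-0.61) were lower, while G6pc, the final step, gave 10.27 and 10.05 in the HO1+/+ arrays and 10.85 and 10.72 in the arrays labelled HO1-/- and was 0.62 higher. Of 22 genes of bile acid synthesis and transport 11 were lower and 2 higher (median -0.22). Cyp7a1, the rate-limiting enzyme, gave 6.03 and 6.13 in the HO1+/+ arrays and 7.23 and 7.06 in the arrays labelled HO1-/- and was 1.06 higher (SE 0.10, adjusted p = 9.28e-07). Nr0b2, which encodes the receptor SHP that represses Cyp7a1, gave 10.69 and 10.73 in the HO1+/+ arrays and 9.96 and 10.13 in the arrays labelled HO1-/- and was lower (-0.67, SE 0.10, adjusted p = 8.18e-05). The importer genes Slco1a4 (-1.19) and Slco1b2 (-0.63) and the synthesis genes Hsd3b7 (-0.65) and Cyp8b1 (-0.54) were lower too.

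Of 35 genes of xenobiotic metabolism 13 were lower and 4 higher (median -0.18). This and the retinoid count below stand beside 1631 and 2101 of 4984 genes lower in the third and brightest bins. Cyp2b10, the standard target of the nuclear receptor CAR, differed by -0.63, the flavin monooxygenase genes Fmo1 and Fmo5 by -0.72 and -0.63, and Aox3 by -0.78, whereas Cyp2c29 was 0.68 and Sult1a1 0.46 higher. Retinoid metabolism had 11 of 26 lower and 2 higher (median -0.13), with the retinoic acid hydroxylase gene Cyp26b1 at -1.05, the reductase gene Dhrs3 at -0.54 and the receptor gene Rarb at -0.30 beside Cyp26a1 and Lrat. Cholesterol synthesis and lipogenesis went both ways (7 higher and 7 lower of 33), with Acacb, which makes the malonyl-CoA that blocks the carnitine shuttle, at -0.96 and the desaturase gene Scd2 at 0.72. Apolipoprotein genes had 8 of 16 higher and 4 lower, with Apoc1 at 0.98 and Apoa4 at -0.91. Glycolysis (6 higher and 4 lower of 18) held Pklr, the liver pyruvate kinase, at -0.66 and the hexokinase gene Hk3, a form of blood cells, at 1.02. Amino acid and urea metabolism (6 higher and 4 lower of 25) held Hal, which degrades histidine, at 0.96, Tdo2 at -0.76 and Mat1a at -0.67. In these lists some counts rested on single arrays. Without combined replicate 1, 3 amino acid genes and 2 xenobiotic genes were called higher and 2 apolipoprotein genes lower. Without HO2 knockdown replicate 1, 2 apolipoprotein genes were lower, and without HO2 knockdown replicate 2, 2 xenobiotic genes were higher. With any 1 array left out, 1 or 2 glycolysis genes were lower.

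Markers of hepatocyte identity did not move one way. Of 30 measured 7 were higher, 8 lower and 15 did not pass, and the median of -0.028 changed sign when quantile normalization was repeated (0.00060), without HO2 knockdown replicate 2 (0.075) and without combined replicate 1 (0.015). With 1 array left out, 2 to 7 were higher and 4 to 6 lower. Ambp was 0.74 higher and Apoa2 0.36, whereas Tdo2, the nuclear receptor gene Nr1i2 (-0.70), which encodes the xenobiotic sensor PXR, and Foxa2 (-0.49) were lower. Hnf4a, the central hepatocyte transcription factor, gave 12.80 and 12.80 in the HO1+/+ arrays and 12.67 and 12.69 in the arrays labelled HO1-/- (-0.12), and its call ended whichever array was left out (adjusted p from 0.095 to 0.153). Alb did not pass (0.070), except with repeated quantile normalization (adjusted p = 0.0276).

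**Figure D2:**
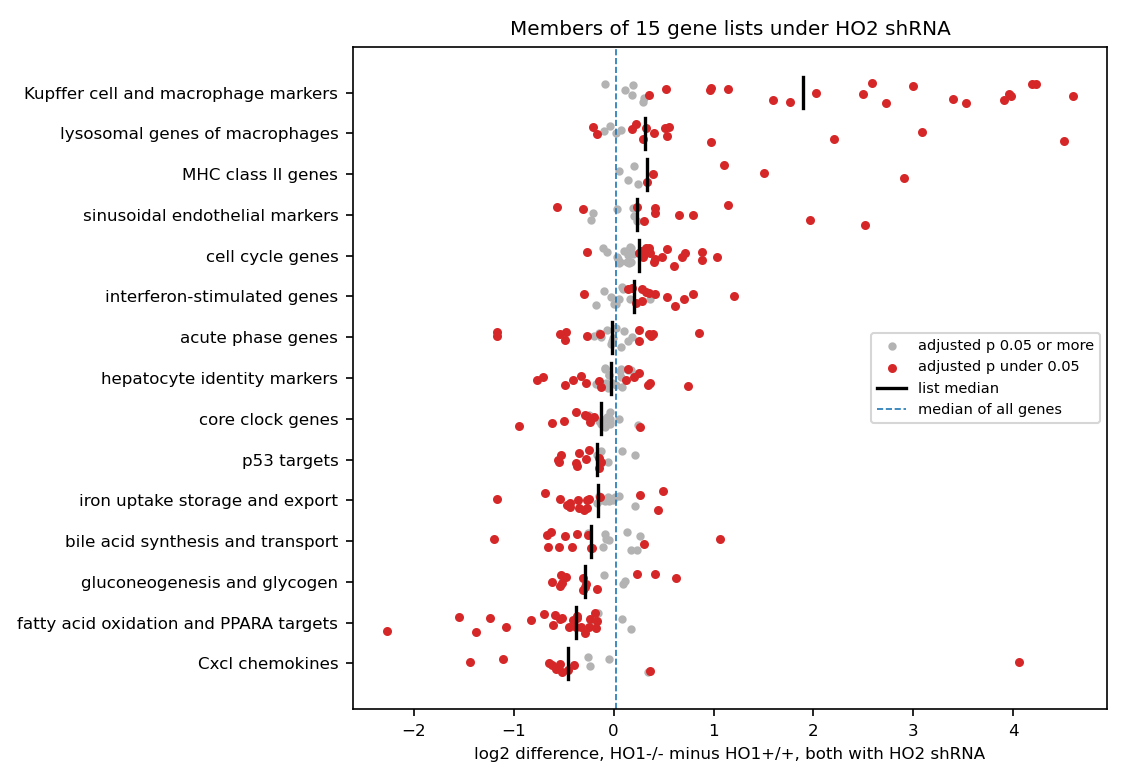
Log2 difference (horizontal axis, arrays labelled HO1-/- minus HO1+/+ arrays, both with HO2 shRNA) of each measured member of 15 gene lists. Red points passed the test, black bars are list medians and the dashed line is the median of all genes, 0.022. The median lies at 1.90 for the Kupffer cell and macrophage markers and at -0.37 for fatty acid oxidation and PPARA targets.

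Acute phase genes, many of which hepatocytes induce under interleukin 6 and related signals, were divided. Of 25 measured 6 were higher, 7 lower and 12 did not pass (median -0.018). Saa4, a serum amyloid A gene, gave 10.72 and 10.73 in the HO1+/+ arrays and 9.53 and 9.58 in the arrays labelled HO1-/- (-1.17, SE 0.066, adjusted p = 2.05e-09), and the arrays labelled HO1-/- were the lower ones. Saa3 (-0.49), the lipopolysaccharide binding protein gene Lbp (-0.48) and Lcn2 (-0.27) were lower too. Saa1 (-0.15), Saa2 (-0.018), Orm1 (-0.13), Orm2 (0.11) and Orm3 (0.19) did not pass. Itih3 was 0.85 higher, Itih4 0.37 and Socs3, the feedback inhibitor of interleukin 6 signalling, 0.39. The fibrinogen gene Fgg gave 11.84 and 11.87 in the HO1+/+ arrays and 12.08 and 12.13 in the arrays labelled HO1-/-, all high and close together (0.25, SE 0.071, adjusted p = 0.0127), and its call ended without HO2 knockdown replicate 1 (adjusted p = 0.0954), without combined replicate 2 (0.0953) and with centred arrays (0.0828). With the scrambled shRNA Fgg gave 8.80 and 9.04 in the HO1+/+ arrays and 11.20 and 11.35 in the arrays labelled HO1-/-, a log2 difference of 2.35, and 20 of the 25 acute phase genes were higher and 0 lower (median 0.91). The HO1+/+ array values of Fgg were thus higher with HO2 shRNA than with scrambled shRNA, and the 2 genotypes lay close only with HO2 shRNA.

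Plasma proteases and complement followed no common direction. Of 28 coagulation and fibrinolysis genes 11 were higher and 4 lower (median 0.14). F9, coagulation factor IX, gave 8.55 and 8.55 in the HO1+/+ arrays and 7.45 and 7.43 in the arrays labelled HO1-/- (-1.11), and F11 (-0.73) was lower, while the plasminogen gene Plg (0.50), its activator gene Plau (0.74), tissue factor gene F3 (0.47) and F10 (0.45) were higher. F13a1, which macrophages express, was 2.84 higher. Of 21 complement genes 4 were higher and 8 lower (median -0.15). The higher ones included the receptor genes C3ar1 and C5ar1 (2.78) and Cfp (2.57), all expressed by myeloid cells, and the lower ones the hepatocyte genes Mbl2 (-1.08), C9 (-0.81) and C1s1 (-0.72). Without HO2 knockdown replicate 1, or without combined replicate 2, 5 complement genes were called lower.

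Chemokine genes of the Cxcl family were mostly lower where they passed, and those of the Ccl family went both ways. Of 15 Cxcl genes 9 were lower and 2 higher (median -0.46). Cxcl5, which attracts neutrophils, gave 8.38 and 8.53 in the HO1+/+ arrays and 7.12 and 6.93 in the arrays labelled HO1-/- (-1.43, SE 0.083, adjusted p = 2.59e-09), with no overlap of the groups. The neutrophil-attracting genes Ppbp, Cxcl2 (-0.58) and Cxcl1 (-0.52) were lower too, as were Cxcl16 (-0.64) and the interferon-induced Cxcl10 (-0.62) and Cxcl11 (-0.53). Pf4 and Cxcl14 (0.37) were the higher ones. Of 18 Ccl genes 6 were higher and 3 lower (median 0.11). Ccl3, a macrophage chemokine, gave 8.78 and 8.89 in the HO1+/+ arrays and 12.19 and 12.19 in the arrays labelled HO1-/- (3.35), and Ccl6, Ccl24 (1.30), Ccl9 (1.20), Ccl4 (1.06) and Ccl12 (0.40, adjusted p = 0.0967 without combined replicate 1) were higher, while the monocyte attractant gene Ccl2 gave 12.53 and 12.66 in the HO1+/+ arrays and 12.12 and 12.10 in the arrays labelled HO1-/- and was lower (-0.49). Among 23 targets of NF-kB and inflammatory genes 4 were higher and 9 lower. Il1a gave 5.93 and 6.01 in the HO1+/+ arrays and 8.81 and 8.57 in the arrays labelled HO1-/- (2.72), Ptgs2, which encodes cyclooxygenase 2, was 0.83 higher, whereas Bcl3 (-0.50) and the adhesion gene Vcam1 (-0.38) were lower. Without combined replicate 2, 5 of these genes were called lower, and without combined replicate 1 or without HO2 knockdown replicate 1, 2 were called higher. Beside these values, the macrophage marker median was 1.90, and its part in the chemokine values was not tested.

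Interferon-stimulated genes were higher in part under HO2 shRNA, while most of them were lower with scrambled shRNA. Of 24 measured 13 were higher, 1 lower and 10 did not pass (median 0.21). Oasl2, of the family of antiviral 2-5A synthetase genes, gave 9.72 and 9.50 in the HO1+/+ arrays and 10.48 and 10.33 in the arrays labelled HO1-/- (0.80, SE 0.10, adjusted p = 2.82e-05). Oas2 gave 8.07 and 7.88 in the HO1+/+ arrays and 9.22 and 9.14 in the arrays labelled HO1-/- (1.20), Rtp4 10.07 and 10.09 in the HO1+/+ arrays and 10.83 and 10.74 in the arrays labelled HO1-/- (0.70) and Ifit3, which binds viral RNA with Ifit1, 9.91 and 9.89 in the HO1+/+ arrays and 10.49 and 10.38 in the arrays labelled HO1-/- (0.53, SE 0.16, adjusted p = 0.019). The groups did not overlap in any of these 4 genes, nor in some members that did not pass, such as Rsad2. Ifit1 was 0.41 higher, Gbp3 0.36 and Oas1a 0.61, while Oasl1 was lower (-0.30, adjusted p = 0.0595 without combined replicate 2) and Rsad2 did not pass (0.095). The call of Ifit3 ended whichever array was left out (adjusted p from 0.0593 to 0.121) and with robust variance estimates (0.183). That of Ifit1 ended without HO2 knockdown replicate 2 (0.11) or combined replicate 1 (0.114), and that of Gbp3 without HO2 knockdown replicate 1 (0.143), HO2 knockdown replicate 2 (0.0829) or combined replicate 1 (0.242). Ifi44l and Ifi203, interferon-inducible genes outside the list, were 2.99 and 2.07 higher, and Slfn1 2.45. Each of these differences exceeds the gene's shift between hairpins given below. Their mean differences with scrambled shRNA were therefore positive as well, unlike those of most of the list. Whether these passed is not given here. The count of 13 rested on few arrays: it was 6 and 5 without HO2 knockdown replicate 1 and 2, 4 and 9 without combined replicate 1 and 2, 6 with centred arrays, and 4 without a mean-variance trend in the variances. With the scrambled shRNA 1 member was higher and 17 were lower (median -0.37), and Oasl2 and Ifit3 stood at -0.77 and -1.14. Oas2 was higher with both hairpins (0.73 with scrambled shRNA) and Oasl1 lower with both (-0.50), and Oas1a did not pass with scrambled shRNA (-0.082). The median difference of the macrophage markers was 1.90 under HO2 shRNA and 2.05 with scrambled shRNA, and its part in the values of these genes was not tested.

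The interferon-stimulated response element, searched as GAAA, any 2 bases and GAAA again on both strands, was found in 11 of 21 windows of these genes (52.4%, from 18 of the 24 genes) and in 3.44% of all 32851 windows. The windows of 3 members that were higher under HO2 shRNA and lower with scrambled shRNA are shown, with matches in capitals, 5′ to 3′ along the gene's strand (RefSeq, GRCm38.p6). In Ifit3 and Ifit1 the 2 matches stand apart, and in Gbp3 they overlap. A second window of Gbp3, at chr3:142560106-142560405, holds no match and is not shown. Such a match is a description of the window and shows no binding.
Ifit3, chr19:34583279-34583578, plus strand: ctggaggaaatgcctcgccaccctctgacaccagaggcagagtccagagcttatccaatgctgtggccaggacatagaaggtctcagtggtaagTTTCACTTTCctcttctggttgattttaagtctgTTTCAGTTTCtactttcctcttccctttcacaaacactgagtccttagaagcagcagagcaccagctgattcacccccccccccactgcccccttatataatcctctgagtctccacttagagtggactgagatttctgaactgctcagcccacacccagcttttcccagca
Ifit1, chr19:34640639-34640938, plus strand: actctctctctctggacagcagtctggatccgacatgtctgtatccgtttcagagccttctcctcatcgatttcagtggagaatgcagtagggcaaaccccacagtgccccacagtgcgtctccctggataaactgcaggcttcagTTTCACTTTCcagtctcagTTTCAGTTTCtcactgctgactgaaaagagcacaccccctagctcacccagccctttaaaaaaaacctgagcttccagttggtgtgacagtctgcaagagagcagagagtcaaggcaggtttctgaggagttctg
Gbp3, chr3:142559794-142560093, plus strand: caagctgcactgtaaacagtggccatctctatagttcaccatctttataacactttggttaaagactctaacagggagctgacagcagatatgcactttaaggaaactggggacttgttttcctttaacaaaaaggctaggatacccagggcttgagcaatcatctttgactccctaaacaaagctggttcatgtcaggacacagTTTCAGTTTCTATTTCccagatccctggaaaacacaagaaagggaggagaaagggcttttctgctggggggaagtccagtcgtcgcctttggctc

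Cell cycle genes were higher in part, and targets of p53 lower in part. Of 35 cell cycle genes 17 were higher, 1 lower and 17 did not pass (median 0.25), against 13.0% of all genes higher and medians of 0.087 and 0.14 in the dimmer bins. Mki67, which encodes the proliferation antigen Ki-67, gave 9.02 and 8.93 in the HO1+/+ arrays and 10.00 and 10.03 in the arrays labelled HO1-/- (1.04, SE 0.062, adjusted p = 4.17e-09). The cyclin gene Ccna2 gave 9.53 and 9.45 in the HO1+/+ arrays and 10.39 and 10.37 in the arrays labelled HO1-/- (0.89) and the mitotic kinase gene Aurkb 8.80 and 8.71 in the HO1+/+ arrays and 9.65 and 9.63 in the arrays labelled HO1-/- (0.88). In all 3 genes both arrays labelled HO1-/- were higher than both HO1+/+ arrays. Mcm6, a subunit of the replicative helicase, was 0.71 higher, Top2a 0.68, Cdk1 0.60 and Plk1 0.54, whereas Mcm7 was lower (-0.27, adjusted p = 0.138 without HO2 knockdown replicate 1) and Foxm1 did not pass (0.065). Of 17 p53 targets 0 were higher and 11 lower (median -0.17, beside -0.11 and -0.12 in the brighter bins). They included Mdm2, the ubiquitin ligase that degrades p53 (-0.37), Sesn2 (-0.55), Gtse1 (-0.56), Eda2r (-0.52) and Zmat3 (-0.37). With scrambled shRNA 3 cell cycle genes were higher and 4 lower (median -0.10). Dividing macrophages also express cell cycle genes. The macrophage marker median was 1.90, and its part in these values was not tested.

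Clock genes, read at a common time 28 h after dexamethasone, were lower where they passed, with 1 exception. Of 21 measured 8 were lower, 1 higher and 12 did not pass (median -0.13, beside -0.11 and -0.12 in the brighter bins). In those bins 1631 and 2101 of 4984 genes each were lower. Bhlhe40, a repressor of E-box transcription, gave 11.15 and 11.17 in the HO1+/+ arrays and 10.33 and 10.10 in the arrays labelled HO1-/- (-0.95, SE 0.090, adjusted p = 1.19e-06). Nr1d1, the heme-binding repressor REV-ERBα, gave 11.20 and 11.14 in the HO1+/+ arrays and 10.56 and 10.56 in the arrays labelled HO1-/- (-0.62, SE 0.069, adjusted p = 6.17e-06). Clock, the activator, gave 10.96 and 10.84 in the HO1+/+ arrays and 10.52 and 10.54 in the arrays labelled HO1-/- (-0.37), and in these 3 genes the groups did not overlap. The kinase genes Csnk1d (-0.29) and Csnk1e (-0.24) were lower too. Ciart was lower from its brightest probe set (-0.49), while a second probe set gave 0.0098 (adjusted p = 0.0748 from the mean of both). Nfil3, the repressor of D-box genes, was 0.26 higher, and its call ended without HO2 knockdown replicate 2 (adjusted p = 0.0622) and without combined replicate 1 (0.0768). The partner of Clock, Arntl (-0.041), and the period gene Per2 (0.051) did not pass. Levels at a single time give no phase or amplitude. Glucocorticoid targets, which dexamethasone induces, had 3 of 19 members higher and 7 lower, with Cebpd at -0.49, Dusp1 at -0.27 and Sgk1 at 0.29. Their median of -0.011 changed sign when quantile normalization was repeated (0.038), when the dimmest 25% of genes were left out (0.010) and without HO2 knockdown replicate 2 (0.014).

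Targets of NRF2 and BACH1 were lower in part, and genes of the integrated stress and unfolded protein response went both ways. NRF2 and BACH1 are the activator and the heme-binding repressor of the antioxidant response. Of 23 targets, 10 were lower, 12 did not pass and Hmox1 alone was higher (median -0.10). In the third and brightest bins 1631 and 2101 of 4984 genes each were lower, with medians of -0.11 and -0.12. Nqo1 gave 8.16 and 8.30 in the HO1+/+ arrays and 7.77 and 7.48 in the arrays labelled HO1-/- (-0.60), and Gclc (-0.40), the rate-limiting gene of glutathione synthesis, and Osgin1 (-0.40) were lower. The genes of the integrated stress and unfolded protein response had 7 of 24 higher and 6 lower, with Sdf2l1 at 0.43, Atf3 at 0.38 and Ern1 at -0.40, and 2 called lower without HO2 knockdown replicate 1 and 3 without HO2 knockdown replicate 2 or combined replicate 1. Of 15 genes of nitric oxide and of guanylate cyclase, a sensor of nitric oxide and carbon monoxide, 3 were lower, the cyclase subunit genes Gucy1b1 (-0.53) and Gucy1a1 (-0.36) and the nitric oxide synthase gene Nos2 (-0.44), and 1 higher, the arginase gene Arg1 (0.71). The calls of Gucy1a1 and Nos2 ended without HO2 knockdown replicate 2 (adjusted p = 0.106 and 0.155) and without combined replicate 2 (0.102 and 0.184). With the scrambled shRNA Arg1 differed by 3.77.

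Genes within 5 Mb of Hmox1, measured because a knockout allele is inherited with its flanks, had a median of 0.0045. Of 107 measured 13 were higher (12.1%) and 21 lower (19.6%), close to the 13.0% and 21.0% of all genes. The leukocyte gene Lrrc25 (1.35), Ifi30 (0.73) and Zfp709 (-0.83) were farthest apart. Without HO2 knockdown replicate 1, 6 were called higher and 14 lower.

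The genotype difference with the scrambled shRNA, in the 4 arrays not used above, gave 2557 called genes (12.8% of all genes), 1121 higher (5.62%) and 1436 lower (7.20%). The 698 genes higher in both contrasts were 26.9% of those higher under HO2 shRNA and 62.3% of those higher with scrambled shRNA. The 828 lower in both were 19.8% and 57.7% of the corresponding lists. The difference between the 2 genotype differences, tested as an interaction that uses all 8 arrays, passed for 2442 genes (12.2%), with 932 more positive under HO2 shRNA (4.67%) and 1510 more negative (7.57%). The count was 1359 without a mean-variance trend, 4744 without control replicate 2, and 1301 at the lowest among the fits that left out 1 array. The largest shifts upward were those of Ifi44l (1.95), Ifit3 (1.67), Ifi203 (1.65) and Cd74 (1.62). Those downward were led by Arg1 (-3.06), Ccl12 (-2.27), the membrane gene Ms4a7 (-2.14), Lrg1 (-2.10) and Fgg (-2.10). Ms4a7 gave 5.36 and 5.51 in the HO1+/+ arrays and 6.68 and 6.90 in the arrays labelled HO1-/- under HO2 shRNA and 5.78 and 5.49 in the HO1+/+ arrays and 9.20 and 9.05 in the arrays labelled HO1-/- with scrambled shRNA. It, Adgre1 (-1.25), the ribonuclease gene Rnase2a (-1.98) and Itgam (-0.85) thus had smaller genotype differences under HO2 shRNA, while Cd74, Clec7a (1.57) and C1qc (0.66) had larger ones, so the macrophage markers did not shift as a block. Of the 26 markers 6 had a called shift upward and 4 downward. Of the 25 acute phase genes 21 had a called shift downward and 0 upward, of the 24 interferon-stimulated genes 17 upward and 0 downward, of the 27 fatty acid oxidation genes 13 downward and 0 upward, and of the 35 cell cycle genes 16 upward and 0 downward. Over all genes 4.67% shifted upward and 7.57% downward. Several fatty acid oxidation genes were dim with scrambled shRNA, as given above, and the part of this in their shifts was not tested.

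**Figure D3:**
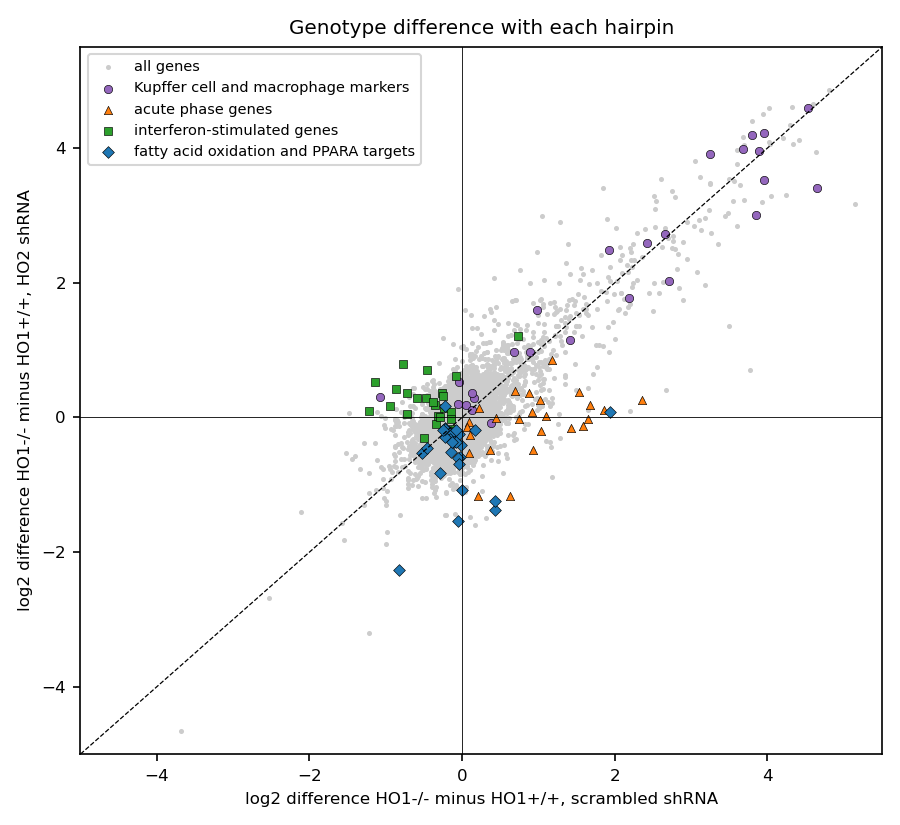
Log2 genotype difference with scrambled shRNA (horizontal axis) and with HO2 shRNA (vertical axis) for all 19937 genes, with 4 gene lists marked and the line of equal differences dashed. The medians with scrambled and with HO2 shRNA are 2.05 and 1.90 for the macrophage markers, of which some lie off the line on either side, 0.91 and -0.018 for the acute phase genes, and -0.37 and 0.21 for the interferon-stimulated genes.

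Few genes were called in opposite directions with the 2 hairpins. There were 58 genes called higher under HO2 shRNA and lower with scrambled shRNA, and 108 called lower under HO2 shRNA and higher with scrambled shRNA, all with a called interaction. Prelp, a matrix gene, gave 9.17 and 9.28 in the HO1+/+ arrays and 8.32 and 8.35 in the arrays labelled HO1-/- (-0.89), and with scrambled shRNA 9.14 and 9.20 in the HO1+/+ arrays and 10.35 and 10.35 in the arrays labelled HO1-/- (1.18). Saa4 (-1.17 and 0.62), Steap4 (-1.16 and 0.21) and Lcat (-0.55 and 0.57), which esterifies cholesterol in plasma, went the same way as Prelp, and Oasl2, Ifit3 and Gbp3 (0.36 and -0.73) the other way. The fatty acid transporter gene Cd36 did not pass under HO2 shRNA (0.082), where it gave 10.60 and 10.64 in the HO1+/+ arrays and 10.67 and 10.74 in the arrays labelled HO1-/-, except with repeated quantile normalization (adjusted p = 0.0233), and was 1.94 higher with scrambled shRNA.

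**Figure D4:**
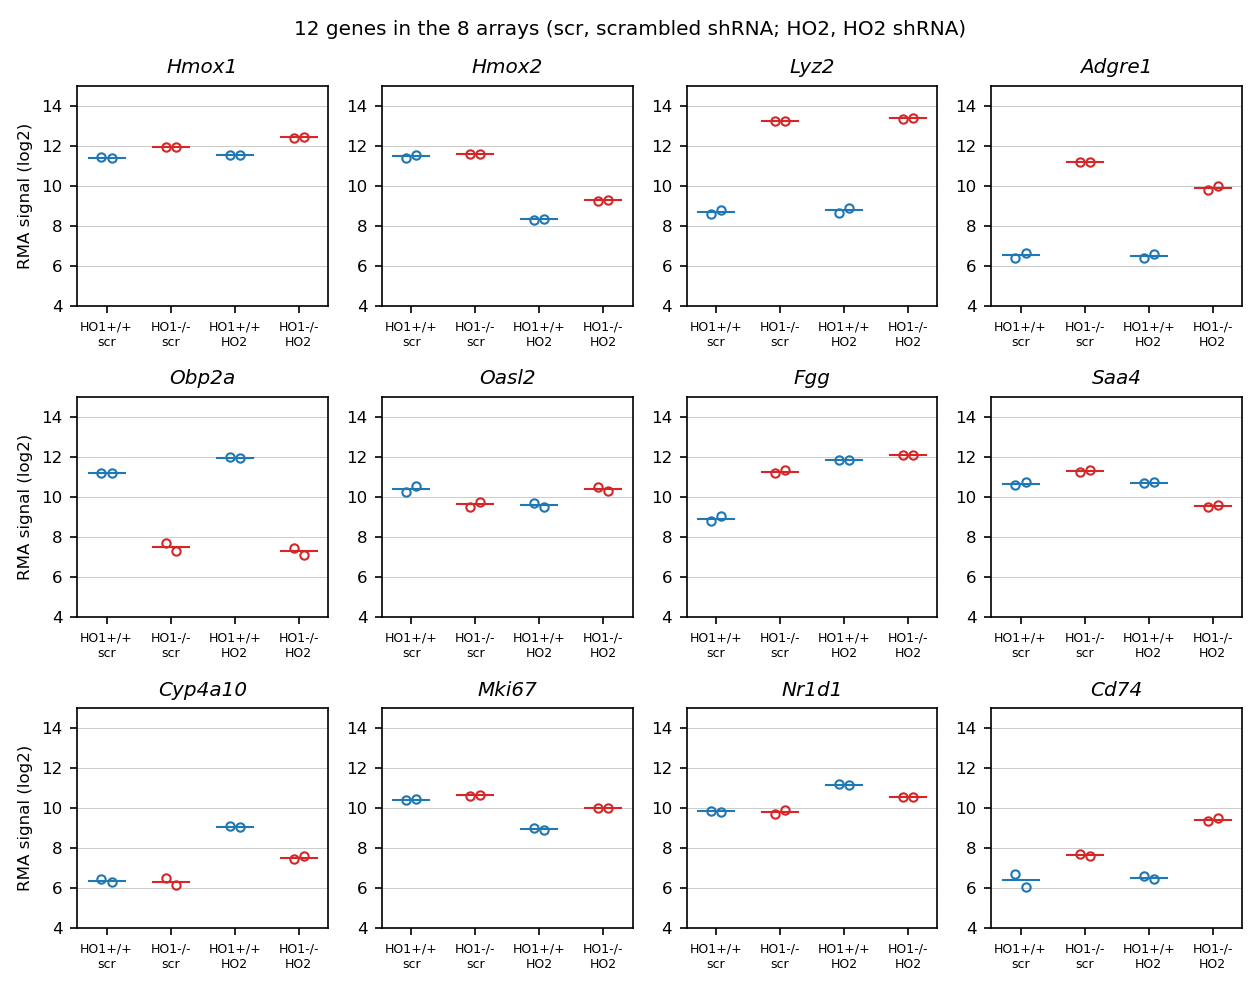
Log2 signal of 12 genes in all 8 arrays, with points for arrays and bars for the mean of each group of 2. Blue marks HO1+/+ and red marks arrays labelled HO1-/-. Lyz2 and Obp2a separate the genotypes with both hairpins, Fgg only with the scrambled shRNA by more than 1 log2 unit (2.35 against 0.25), and Oasl2 differs by -0.77 with scrambled shRNA and 0.80 with HO2 shRNA.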

How the data were processed

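The deposited values are log2 signals for each probe set. The submitters' processing notes name RMA and affy (R 2.15.0), and the authors deposited the result as log2. Neither chip definition nor genome build is given in the sources used here. No dates or slides were given, so no batch could be tested. The table held 34760 probe sets, of which 21640 with 1 gene symbol were used, 1321 with several and 11799 with none left out. The brightest probe set stood for each of 954 genes with several, which left 19937 genes, 19855 of them matched to RefSeq (GRCm38.p6), the source of coordinates and promoter windows. Array medians ran from 7.61 to 7.70, replicates correlated with r from 0.9967 to 0.9986, and arrays of different groups with r from 0.9746 to 0.9887. The number of arrays, 2 per group, limits the precision, and the median SE of a log2 difference was 0.0897.

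Group means over all 8 arrays were fitted with limma 3.58.1 (R 4.3.3), with 4 residual and 11.19 prior degrees of freedom, an empirical Bayes trend, and two-sided tests adjusted by Benjamini-Hochberg over all genes. The fit was tested on simulated data first. Contrasts were the genotype difference with each hairpin and their difference, called at an adjusted p under 0.05. The 2 genotype contrasts share no array, and the interaction uses both.

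The comparison and the 39 gene lists were chosen with earlier results of these data known. Of 955 list entries 878 were analysed, and lists are described by counts and medians. Named genes were Hmox1, Hmox2, the 20 largest called differences in each direction with no overlap of arrays, the 10 largest called interactions in each direction, and list members. The text prints a selection. The rankings skip predicted genes and small RNAs. Alternatives covered the variance model, normalization, dim genes, probe sets per gene, array weights, the arrays in the fit, a replicate block, and dropping each array in turn.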

Additional observations from a re-analysis of the deposited data

Results flagged for a closer look

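The genotype difference under HO2 shRNA differed from that with scrambled shRNA, by the interaction term, in 2442 genes at a limma adjusted p under 0.05, and among them were 150 of the genes named here. Each value below is a shift on the log2 scale, the genotype difference under HO2 shRNA minus the genotype difference with scrambled shRNA. All rest on 2 arrays in each of 4 groups.

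Among heme and iron genes the shift was upward in Hmox2 (0.84), Slc40a1 (0.62), Alad (0.43) and Hmox1 (0.34). Steap4 (-1.37), Fabp1 (-0.65), Tfr2 (-0.64), Hamp (-0.62), Slc11a2 (-0.59), Ncoa4 (-0.52), Fech (-0.52), Tfrc (-0.45), Slc39a14 (-0.40), Lcn2 (-0.36), Ambp (-0.36), Fbxl5 (-0.35) and Alas1 (-0.32) shifted downward. Among macrophage, lysosomal and class II genes the shift was upward in Cd74 (1.62), H2-Aa (1.22), H2-Ea (0.98), C1qc (0.66), C1qa (0.57), Clec4f (0.57), Ctss (0.56), Atp6v0d2 (0.56) and C1qb (0.40). Adgre1 (-1.25), Itgam (-0.85), Gpnmb (-0.61), Cd14 (-0.47), Msr1 (-0.43), Lgmn (-0.38) and Ctsc (-0.32) shifted downward. Among markers of other cell types the shift was upward in Mmp9 (1.21), Kdr (0.51), Acta2 (0.51), Tspan8 (0.51), Postn (0.48), Ptprb (0.47), Cldn4 (0.42) and Krt7 (0.35). Fcgr2b (-1.21), Ppbp (-0.89), Lrat (-0.85), Mmp8 (-0.70), Dcn (-0.67) and Sox9 (-0.47) shifted downward.

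In fatty acid oxidation and PPARA targets the shift was downward in Cd36 (-1.85), Cyp4a12a (-1.81), Cyp4a12b (-1.67), Cyp4a10 (-1.49), Cyp4a31 (-1.44), Ehhadh (-1.07), Cpt2 (-0.39) and Creb3l3 (-0.36). Among genes of bile acids, glucose, drugs, retinoids, amino acids and lipids the shift was upward in Cyp7a1 (1.06), Apoc1 (0.66), Apom (0.48) and Fmo1 (0.24). Arg1 (-3.06), Lcat (-1.12), Obp2a (-0.98), Hal (-0.96), Aox3 (-0.89), Nr1i2 (-0.84), Mat1a (-0.79), Cyp2b10 (-0.79), Cyp8b1 (-0.75), Slco1b2 (-0.75), Slco1a4 (-0.72), Hsd3b7 (-0.65), Mup3 (-0.64), Fmo5 (-0.61), Nr0b2 (-0.59), Acacb (-0.48), Pklr (-0.42), Scd2 (-0.39), Foxa2 (-0.38), Hnf4a (-0.29) and Dhrs3 (-0.22) shifted downward.

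In acute phase, coagulation and complement genes the shift was upward in Plau (0.59) and F3 (0.41). Fgg (-2.10), Saa4 (-1.79), Saa3 (-1.41), Itih4 (-1.16), F9 (-1.14), Lbp (-0.85), Cfp (-0.78), C9 (-0.75), F13a1 (-0.75) and C1s1 (-0.67) shifted downward. Among chemokine and inflammatory genes the shift was upward in Cxcl11 (0.98), Vcam1 (0.91), Cxcl10 (0.83), Ptgs2 (0.83), Ccl24 (0.62), Ccl3 (0.61), Ccl9 (0.61), Cxcl14 (0.53) and Ccl6 (0.37). Ccl12 (-2.27), Cxcl5 (-1.34), Bcl3 (-0.90), Ccl4 (-0.79), Cxcl2 (-0.78), Ccl2 (-0.52), Cxcl1 (-0.50) and Cxcl16 (-0.47) shifted downward. Among interferon-stimulated genes of the list the shift was upward in Ifit3 (1.67), Oasl2 (1.57), Rsad2 (1.32), Ifit1 (1.28), Rtp4 (1.16), Gbp3 (1.09), Oas1a (0.70) and Oas2 (0.47).

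In cell cycle genes and p53 targets the shift was upward in Mki67 (0.84), Mcm6 (0.83), Cdk1 (0.78), Top2a (0.77), Ccna2 (0.74), Aurkb (0.63) and Plk1 (0.57). Sesn2 (-0.48) and Gtse1 (-0.38) shifted downward. Among clock, glucocorticoid and stress genes the shift was downward in Cebpd (-0.81), Nr1d1 (-0.59), Bhlhe40 (-0.59), Dusp1 (-0.53), Clock (-0.31) and Gclc (-0.25). In the remaining named genes the shift was upward in Ifi44l (1.95), Ifi203 (1.65), Clec7a (1.57), Slfn1 (1.47), P2ry13 (1.43), Fbp2 (0.70), Tlr7 (0.61), Ly86 (0.58) and Ifi30 (0.40). Ms4a7 (-2.14), Lrg1 (-2.10), Prelp (-2.07), Rnase2a (-1.98), Vnn3 (-1.81), H2-M2 (-1.76), Zfp931 (-1.57), Rgs4 (-1.22) and Spon1 (-0.73) shifted downward.

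Of these 150 shifts, 119 kept their call in every fit that left out 1 array. The calls of the following ended in at least 1 such fit: Acacb, Apom, Atp6v0d2, C1qa, C1qb, Ccl24, Ccl6, Clec4f, Clock, Creb3l3, Ctss, Dhrs3, Fabp1, Fbxl5, Fmo1, Foxa2, Gtse1, Kdr, Krt7, Ly86, Msr1, Nr0b2, Oas2, Postn, Ptprb, Scd2, Slco1a4, Tfrc, Tlr7, Tspan8 and Zfp931.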

How the results depend on the processing

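The count of 6775 genes called under HO2 shRNA ran from 3827 without HO2 knockdown replicate 1 to 5186 without HO2 knockdown replicate 2 when 1 array was left out, and from 5669 with repeated quantile normalization to 8682 with array weights under the other settings. Its share of higher calls was 38.2%, and 24.1% with centred arrays. The count with scrambled shRNA ran from 1704 to 2937 without 1 array. The interaction count of 2442 was 1359 without a mean-variance trend and ran from 1301 to 4744 without 1 array, and its share of higher calls was 38.2%, 27.1% with centred arrays and 47.2% with repeated quantile normalization. Fits without 1 array leave a group with a single array, which is assumed to vary like the other groups. With the cause not tested, repeated quantile normalization turned the medians of the cholangiocyte markers to -0.030, the hepatocyte identity markers to 0.00060 and the lipocalins to -0.026, and the log2 differences of Arntl to 0.027 and Slc39a14 to 0.049. Centred arrays turned Per2 to -0.013. Without 1 array the hepatocyte median ran from -0.049 to 0.075, Per2 from -0.043 to 0.15 and Slc39a14 from -0.13 to 0.029.

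Of 248 named genes, counted over every fit without 1 array, 947 of 992 values kept direction and side of the threshold, 42 lost the call, 1 gained one and 2 changed sign. Under the other settings the numbers were 2187 of 2216, 21, 5 and 3. Of the interaction values, 139 of 1200 lost the call without 1 array and 64 of 1194 under the other settings, and none in either set changed sign.

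The replicate numbers did not pair the samples. Deviations from the group means correlated with 0.12 between same-numbered arrays with HO2 shRNA and with -0.26 between those with scrambled shRNA. Between the 2 hairpins they correlated with -0.17 in HO1+/+ arrays and with 0.0041 in arrays labelled HO1-/-. With the replicate block the counts were 6564 under HO2 shRNA, 2501 with scrambled shRNA and 2327 for the interaction, and 2620 with scrambled shRNA when the numbers were crossed, an alternative added after seeing the data. Whether a signal lay above background was not given for single probe sets or arrays in the sources used here.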
